A study of Homo sapiens with 12 samples.

Results

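The measurement described here is the genotype by interferon gamma (IFN-γ) interaction in THP-1 macrophages: how far the response of SDC3-knockout cells to IFN-γ differed, gene by gene, from the response of wild-type cells. It was taken from all 12 libraries in 1 fit, as the knockout change (with IFN-γ minus without) less the wild-type change, with 3 libraries in each of 4 groups. Of 58051 genes counted, 17119 had enough reads to be tested, and the responses differed for 2649 of these (15.5% of the genes tested, adjusted p under 0.05). For 458 (2.68%) the difference was at least 1 on the log2 scale. THP-1 is a human monocytic leukaemia line that the phorbol ester PMA turns into adherent macrophage-like cells. The 4 groups were wild-type cells without and with recombinant human IFN-γ, and cells edited at SDC3 by CRISPR/Cas9 without and with it. All 4 groups had first received 20 ng/ml PMA for 24 h and a change of medium, so the cells without IFN-γ were PMA-treated too. The labels state no dose or duration for IFN-γ and do not say how many edited lines there were, so the edited cells may come from 1 clone. Whether the libraries within a group were grown separately is not stated, and p-values then measure only the spread between these libraries, which may be technical.

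IFN-γ binds the receptor chains IFNGR1 and IFNGR2, the kinases JAK1 and JAK2 pass the signal on, and it reaches GAS elements in promoters. Among the genes induced are the transcription factor IRF1 and the MHC class II transactivator CIITA. In macrophages the outcome is antimicrobial GTPases, chemokines, antigen presentation and arrest of the cell cycle, restrained by SOCS1 and SOCS3. SDC3 encodes syndecan-3, a transmembrane proteoglycan whose heparan sulphate chains bind chemokines, growth factors and cytokines, IFN-γ among them.

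SDC3 itself was lower in every knockout library but not absent. SDC3 had 196, 252 and 241 CPM in the untreated wild type and 578, 589.9 and 571 CPM with IFN-γ, against 49.9, 48.1 and 43.9 CPM in the untreated knockout and 237, 236 and 244 CPM with IFN-γ. CPM is a gene's count relative to its library's TMM-scaled total. The highest untreated knockout library was below the lowest untreated wild-type one, and the same held with IFN-γ. SDC3 lies on hg38 chromosome 1, 30869467 to 30908761, and reads over the whole gene were counted, so edited transcripts that are still made are included. Its rise was larger in the knockout by 1.00 ± 0.08 on the log2 scale (here and below ± SE; adjusted p = 9.9e-11), while its gain in CPM was smaller there (192 against 350.0 CPM).

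Library depth was 23616738 to 29426415 assigned counts, so that 3 counts were 0.102 to 0.127 CPM. Of 16 macrophage markers all were tested, and CD14, CSF1R and ITGAM were read at 322, 1249.7 and 548 mean CPM in the untreated wild type. CD68, a defining marker, was under 1 CPM in every library, with 90 counts over all 12. Whether its reads were lost in mapping or counting was not tested, so these counts are not taken as its level of expression. Of 14 T and NK cell markers 3 could be tested, and their summed level was 3.52 to 9.59 CPM across all libraries. The largest sum of another cell type was that of 10 epithelial markers, 27.5 to 29.6 CPM in the untreated and 91.9 to 98.2 CPM in the treated wild type, 39.8 to 42.2 and 179.5 to 193.2 CPM in the knockout. Over all 12 libraries MUC1, a mucin also made by activated leukocytes, held 19158 of those counts and the claudin gene CLDN7 7645, with 466 for KRT8, 68 for CLDN4 and 17 for KRT18, while EPCAM, KRT5, KRT14, KRT19 and CDH1 had 0 to 6. The rise of MUC1 was amplified by 0.42 ± 0.09 log2.

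Across all genes tested the responses of both genotypes ran together (Pearson r 0.871, a description across genes, which are not independent replicates). Of 8070 genes called in both genotypes, 98.5% moved the same way, and the change was larger in the knockout for 63.4% of them. The median difference over all tested genes was -0.03 log2, with a median standard error (SE) of 0.144 for a single gene. The IFN-γ response itself was called for 9666 genes in the wild type (56.5%) and 10456 in the knockout (61.1%).

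**Figure D1:**
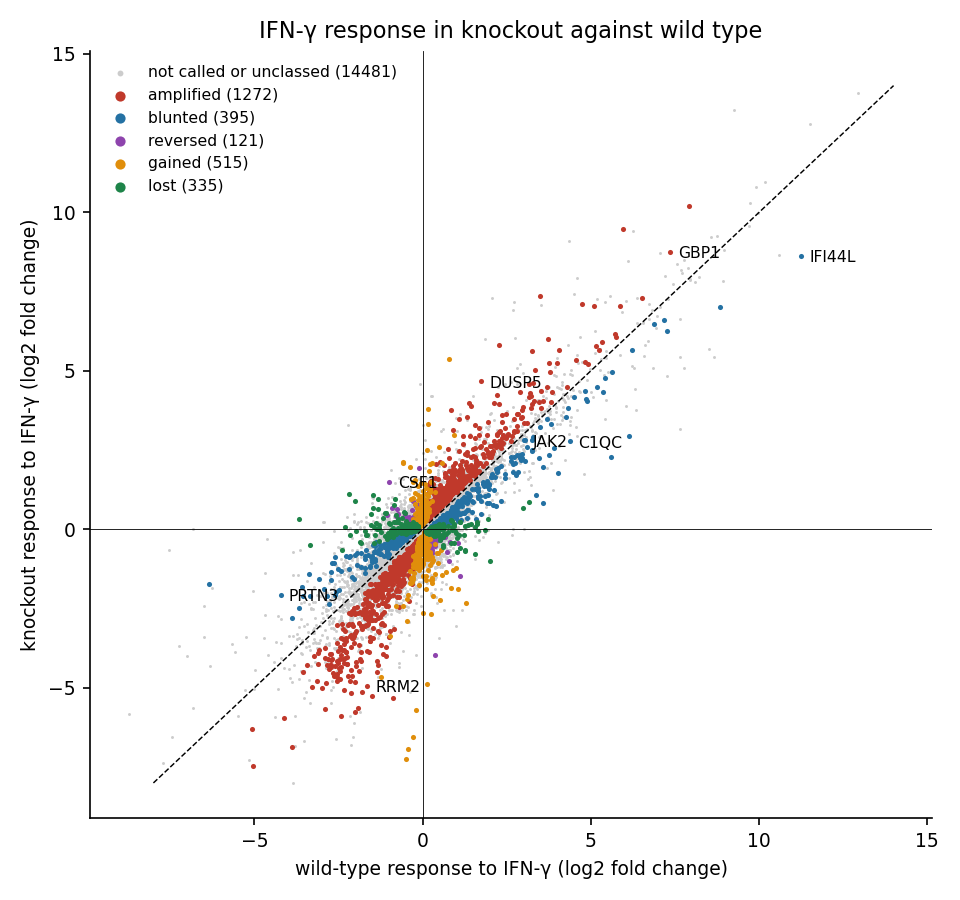
Each point is 1 of the 17119 tested genes, with its log2 response to IFN-γ in the wild type (x) and in the knockout (y), coloured by class, and the dashed line marks equal responses. Most called genes lie along the line but off it, and the red amplified genes (1272) reach furthest below it among genes that fell in both genotypes.

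Called differences were sorted by what the response did. The response was amplified (called in both genotypes, same direction, larger in the knockout) for 1272 genes, 679 of which rose and 593 fell. It was blunted (smaller in the knockout) for 395 genes, 240 rises and 155 falls. Both responses were called with opposite signs for 121 reversed genes, 66 of which rose and 55 fell in the knockout. When each response also had to reach 0.5 log2, 6 genes were reversed. A response was gained (called only in the knockout) by 515 genes and lost (called only in the wild type) by 335, and 11 genes had neither response called. Some of these could not be measured in the genotype without a response, since both its groups were under 1 CPM. That left 487 gained and 305 lost responses. The differences split about evenly by sign, with the knockout response more positive for 1302 genes (7.61%) and more negative for 1347 (7.87%). With libraries scaled by their totals alone that split was 1000 to 1853, with RLE size factors 1499 to 1150, and by DESeq2 1547 to 1175.

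**Figure D2:**
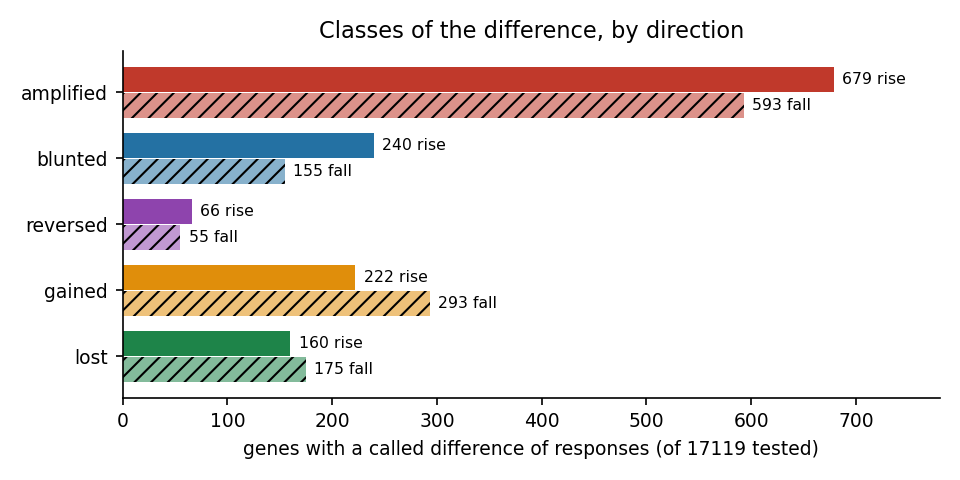
Bars count the genes of each class (x, number of genes), solid for rises and hatched for falls, by the direction in the knockout, or in the wild type for lost responses. Amplified genes (679 rises, 593 falls) outnumber blunted ones (240 and 155).

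The class of a gene went with its level before IFN-γ. Among blunted rises 81.7% started higher in the untreated knockout than in the untreated wild type, among lost rises 80.6%, and among amplified rises 27.4%. Of the genes not called, 52.2% started higher in the knockout. The untreated libraries enter both the starting level and the difference, so these shares are descriptions and not tests. Amplified falls had no such lean, with 50.8% starting higher in the knockout.

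Cell cycle genes had the largest median difference of the lists. Of 63 listed genes 56 (88.9%) were called, beside 15.5% of all genes tested, and all 56 were amplified falls. The median difference was -1.41 log2, from a median fall of 1.67 in the wild type and 3.51 in the knockout, beside a median difference of -0.03 over all genes tested. For RRM2 the wild type went from 42.4, 37.2 and 33.6 CPM to 11.7, 13.5 and 10.5 CPM, and the knockout from 38.2, 38.1 and 37.0 CPM to 1.38, 1.14 and 1.15 CPM. RRM2 (hg38 chromosome 2, 10122328 to 10131419) is the ribonucleotide reductase subunit that supplies dNTPs in S phase. Its untreated libraries overlapped between the genotypes, its treated ones did not, and the difference was -3.29 ± 0.17 (adjusted p = 2.5e-15).

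MYBL2 measured 87.9, 93.4 and 91.1 CPM without and 20.5, 24.0 and 17.5 CPM with IFN-γ in the wild type, and 67.1, 63.4 and 61.5 and then 1.86, 2.16 and 1.38 CPM in the knockout. MYBL2 activates late cell cycle genes, and its fall was larger in the knockout by 3.02 log2 with an SE of 0.15. MKI67 had 247, 264 and 223 CPM in the untreated wild type and 40.0, 49.98 and 43.9 CPM with IFN-γ, against 218, 233 and 223 CPM in the untreated knockout and 7.45, 8.87 and 9.09 CPM with IFN-γ. MKI67 encodes the proliferation antigen Ki-67, and with IFN-γ its lowest wild-type library was well above its highest knockout library, a difference of -2.28 ± 0.11. DTL, a ubiquitin ligase subunit of replicating cells, NCAPG of the condensin complex and HJURP, which loads centromeric histone, had differences of -2.81 ± 0.19, -2.57 ± 0.17 and -2.42 ± 0.17.

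The size varied within the list. E2F8, a repressor of E2F targets (-3.76 ± 0.31), and the replication factors MCM10 (-3.33 ± 0.32) and CDC45 (-3.15 ± 0.25) had differences as wide as that of RRM2, and each was under 1 CPM in the treated knockout. TYMS, thymidylate synthase, had -2.52 ± 0.17, and CCNB1, the mitotic cyclin B1, and PCNA, the replication clamp, had -0.46 ± 0.11 and -0.49 ± 0.09. For 7 genes, CDK2, MCM2, MCM6, GINS1, RRM1, AURKA and BRCA2, no difference was called. AURKA, a mitotic kinase, went from 63.5 to 33.9 mean CPM in the wild type and from 56.2 to 26.8 in the knockout, a difference of -0.16 ± 0.09. CDKN1A, the p21 inhibitor of cyclin-dependent kinases, was an amplified rise of 0.39 ± 0.06. Before IFN-γ, RRM2 was at 37.7 mean CPM in the wild type and 37.8 in the knockout, MKI67 at 245 and 225, MYBL2 at 90.8 and 64.0, and E2F1 at 22.6 and 14.9. In CPM the loss was smaller in the knockout for 25 of the 56 genes, for 10 of them by more than 2 SE, MYBL2 among these (by 7.94 ± 2.98 CPM). The median loss was 25.8 CPM in the wild type from a median start of 35.9 CPM, and 24.6 CPM in the knockout from 28 CPM. Bulk libraries cannot tell fewer cycling cells from less of each transcript per cell.

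**Figure D3:**
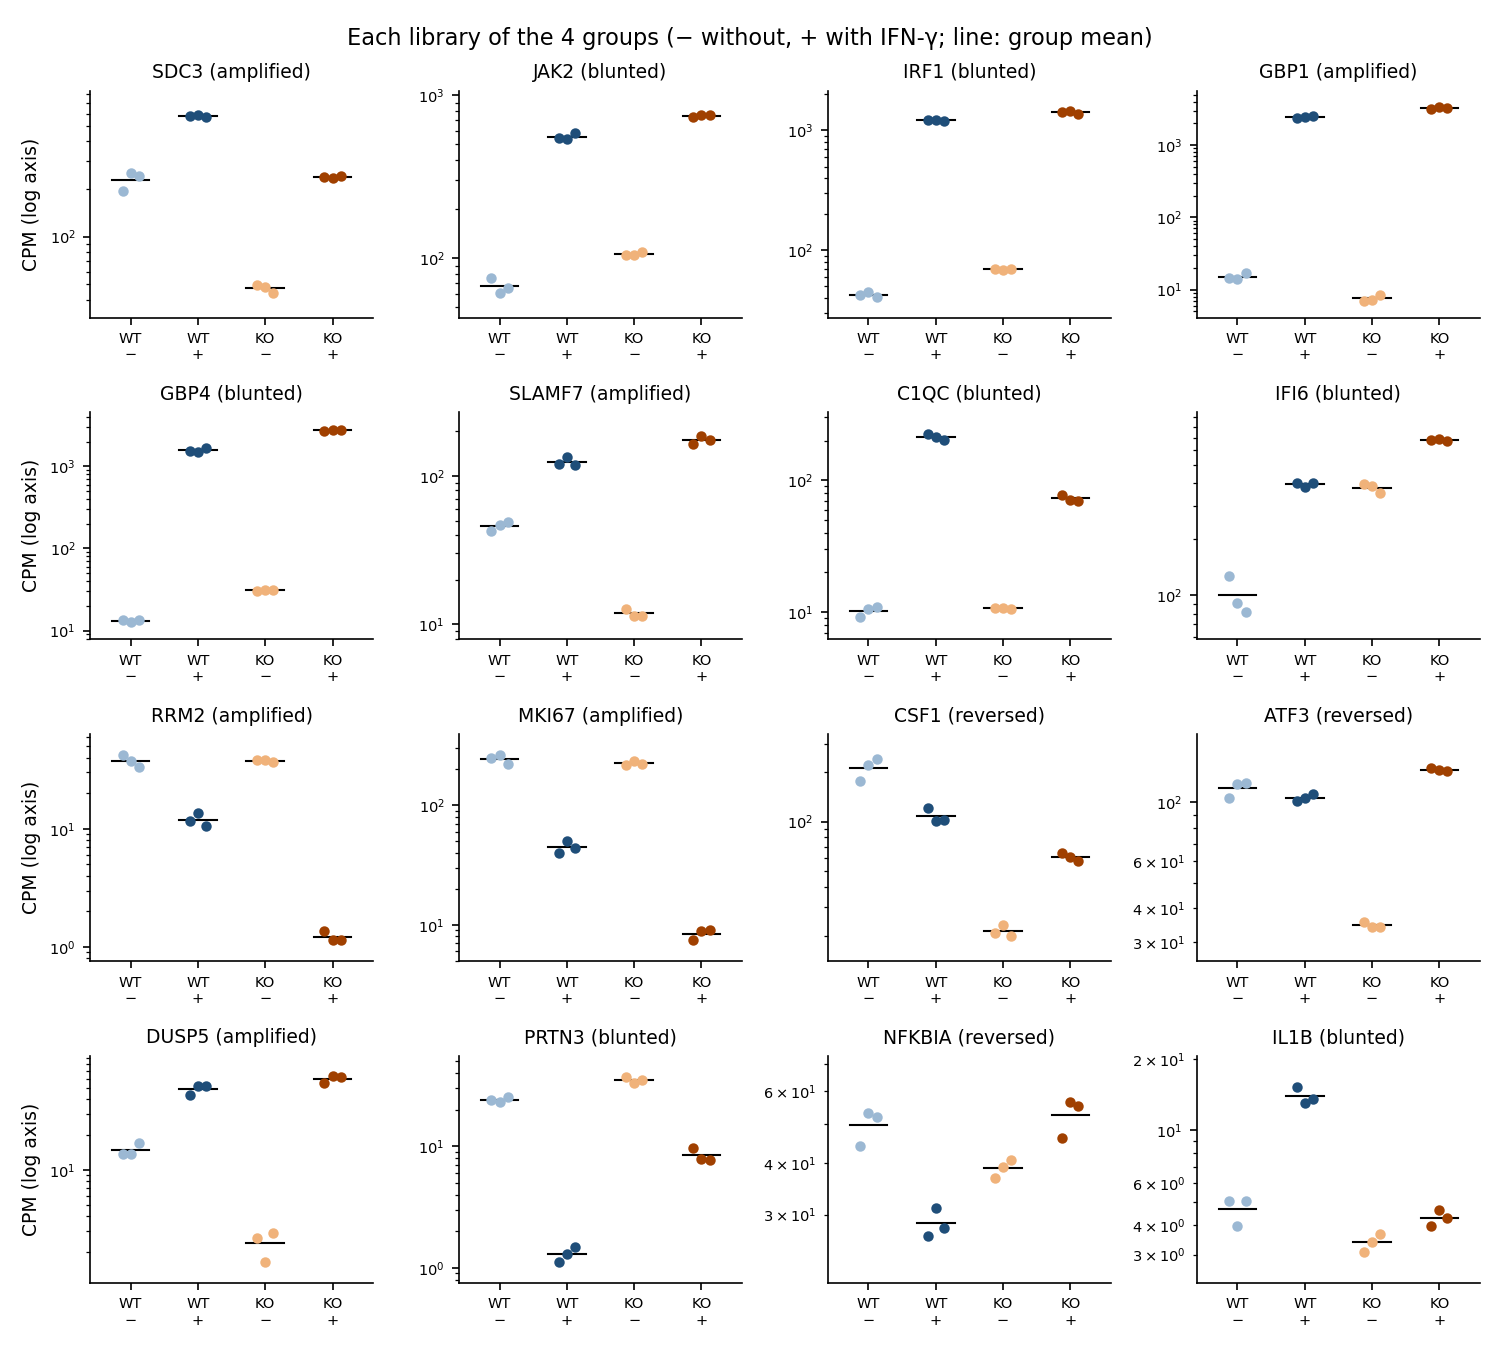
Points are single libraries (y, CPM on a log axis, 3 per group) of wild-type (WT, blue) and knockout (KO, orange) cells without (−) and with (+) IFN-γ, and lines are group means. RRM2 and MKI67 fall further in the knockout, and CSF1 and NFKBIA move in opposite directions. ATF3 rises in the knockout, while its wild-type libraries overlap between treatments. JAK2, IRF1 and GBP4 start and end higher in the knockout.

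The signalling list itself was mixed. Of 24 receptors, kinases, transcription factors and brakes of the pathway 12 were called, 7 of them blunted rises, 4 amplified rises and 1 a lost fall, beside 15.5% of all genes tested and 21.5% of the 11441 genes with at least 5 CPM in a group. The receptor chains and the upstream kinase had no called difference: IFNGR1 had -0.06 ± 0.06, IFNGR2 0.09 ± 0.07 and JAK1 -0.02 ± 0.06 log2.

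IRF1 measured 42.3, 44.7 and 41.1 CPM without and 1226, 1218 and 1191 CPM with IFN-γ in the wild type, and 70.0, 68.4 and 69.5 and then 1418, 1443 and 1385 CPM in the knockout. IRF1, a transcription factor induced early by IFN-γ, was higher in every knockout library than in any wild-type library of the same treatment, and its rise was blunted on the log2 scale by -0.47 ± 0.05. JAK2 was blunted by -0.24 ± 0.07, and it too was higher in the knockout in both states (from 67.3 to 554 mean CPM in the wild type and from 107 to 745 in the knockout).

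For IRF8 the wild type went from 51.5, 50.9 and 51.3 CPM to 118, 122 and 117 CPM, and the knockout from 75.0, 71.5 and 75.6 CPM to 105, 108 and 103 CPM. For IRF8, which directs monocyte and macrophage development, the order of the genotypes changed: the knockout was higher without IFN-γ and lower with it, and the difference was -0.71 ± 0.07. BATF2, a partner of IRF factors in activated macrophages, was blunted by -0.66 ± 0.16 and STAT2, of the type I interferon complex ISGF3, by -0.34 ± 0.05. The brake SOCS3, an inhibitor of JAK kinases, was blunted by -0.39 ± 0.12. Amplified rises were BATF3 (1.48 ± 0.29), USP18 (0.59 ± 0.19), which limits type I interferon receptor signalling, IRF2 (0.33 ± 0.06), a competitor of IRF1, and the phosphatase gene PTPN6 (0.19 ± 0.06). SOCS1 and CIITA were at 0.299 and 2.33 mean CPM in the untreated wild type and 0.314 and 1.62 in the knockout, and neither difference was called (0.38 ± 0.43 and 0.08 ± 0.19). With IFN-γ, CIITA was at 274, 277 and 257 CPM in the wild type and 194, 190.4 and 193 in the knockout, and SOCS1 at 65.0, 60.8 and 62.9 and 88.0, 86.0 and 85.5.

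Among IFN-γ effectors 21 of 53 tested genes (39.6%) were called, 16 amplified and 5 blunted, and all 53 rose in both genotypes. A difference was called for 15.5% of all genes tested and 30.4% of 523 genes that rose by at least 2 log2 in the wild type. The median difference of the effectors was 0.14 log2 against median rises of 4.25 in the wild type and 4.32 in the knockout. SLAMF7 had 42.6, 46.6 and 49.0 CPM in the untreated wild type and 120.2, 135 and 118 CPM with IFN-γ, against 12.6, 11.4 and 11.4 CPM in the untreated knockout and 164, 187 and 175 CPM with IFN-γ. SLAMF7 (hg38 chromosome 1, 160739057 to 160754821), a receptor of the SLAM family on activated macrophages, crossed over: lower in every untreated knockout library, higher in every treated one, with a difference of 2.46 ± 0.09. GBP1 measured 14.4, 13.8 and 16.9 CPM without and 2379, 2429 and 2538 CPM with IFN-γ in the wild type, and 6.98, 7.20 and 8.38 and then 3189, 3343 and 3210.0 CPM in the knockout. GBP1, a guanylate-binding protein that attacks vacuoles of intracellular microbes, crossed over in the same way, by 1.4 ± 0.08. Smaller amplified rises were SLAMF8 (0.91 ± 0.06) and the apolipoprotein L gene APOL2 (0.75 ± 0.06). FCGR1A, the high-affinity IgG receptor, was amplified by 0.30 ± 0.06, and its near-identical copies make its reads uncertain.

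Among blunted effectors, PLAAT4, a phospholipid-modifying enzyme, and P2RY14, a receptor for UDP-glucose, ended lower in the knockout (61.6, 59.7 and 64.4 against 87.4, 90.2 and 84.6 CPM for PLAAT4, 22.2, 23.8 and 21.9 against 53.2, 52.2 and 53.3 CPM for P2RY14). Their differences were -1.02 ± 0.14 and -0.68 ± 0.20. For GBP4 the wild type went from 13.4, 12.8 and 13.4 CPM to 1537, 1508 and 1649.9 CPM, and the knockout from 30.5, 31.3 and 31.5 CPM to 2703, 2768 and 2777 CPM. GBP4 was therefore higher in the knockout throughout, and the difference of its log2 responses was -0.42 ± 0.06. GBP5 and CD274, the PD-L1 gene, had no called difference (-0.14 ± 0.09 and -0.25 ± 0.17).

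For the CXCR3 ligands the ratio could not be measured well, since the untreated groups held almost no reads. CXCL9 had 4 counts over the 3 untreated wild-type libraries and 4 over the knockout ones, CXCL10 8 and 8, and CXCL11 2 and 0. With IFN-γ CXCL10 was at 236, 315 and 281 CPM in the wild type and 576, 685 and 704 CPM in the knockout, and CXCL9 at 359, 434 and 379 and 608, 694 and 756 CPM. Both were higher in all 3 knockout libraries, but the differences of the log2 responses had SEs of 1.32 for CXCL9 and 1.10 for CXCL10 and were not called. IDO1, the tryptophan-degrading enzyme, had 0 counts in all 6 untreated libraries.

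Of 64 type I interferon-stimulated genes tested 38 (59.4%) were called, 23 amplified and 15 blunted. That stood beside 15.5% of all genes tested and 30.4% of genes that rose by at least 2 log2 in the wild type. Amplified rises were led by HERC5 (0.83 ± 0.12), which attaches ISG15 to proteins, and OAS3 (0.79 ± 0.08), a sensor of double-stranded RNA, with IFIT2 (0.77 ± 0.12), IFIT3 (0.66 ± 0.07) and the RNA helicase gene IFIH1 (0.60 ± 0.07). OAS3 had 25.6, 28.3 and 29.8 CPM in the untreated wild type and 361, 374 and 364 CPM with IFN-γ, against 25.1, 30.6 and 23.7 CPM in the untreated knockout and 601, 592 and 609 CPM with IFN-γ. The untreated libraries overlapped between genotypes and the treated ones did not. ISG15 was amplified by 0.29 ± 0.09, and RSAD2, another antiviral gene with under 3 CPM untreated, was not called (0.32 ± 0.27).

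Blunted rises were led, under the level rule, by IFI6 and LGALS3BP. IFI6 measured 128, 91.5 and 81.1 CPM without and 399, 379.5 and 399 CPM with IFN-γ in the wild type, and 396, 386 and 352 and then 680.2, 687 and 669 CPM in the knockout. The untreated knockout thus stood near the treated wild type for IFI6, a mitochondrial antiviral protein, and the difference was -1.13 ± 0.11. LGALS3BP, a secreted galectin ligand, went from 139.7 to 1004 mean CPM in the wild type and from 320.4 to 1116 in the knockout (difference -1.05 ± 0.06). MX1, a dynamin-like antiviral GTPase, was blunted by -0.56 ± 0.13, although its treated knockout libraries, at 647, 646 and 633 CPM, were above the wild type's 225, 231 and 222 CPM. IFI44L had only 10 counts over the untreated wild-type libraries against 87 in the knockout, and a difference of -2.60 ± 0.42.

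Promoter letters are shown for 5 genes of these groups, so that the interferon and E2F elements of blunted and amplified members can be set side by side. Each is the 250 bases before a RefSeq transcription start on GRCh38.p14, written 5′ to 3′ on the gene's strand, for genes with 1 listed start. Capitals mark matches, on either strand, to the GAS word TTCNNNGAA, the interferon-stimulated response element (ISRE) core GAAANNGAA or an E2F word, TTTGGCGC or TTTCCCGC. IRF1 (blunted rise) lies on the minus strand at chr5:132490774-132491023, IFI44L (blunted rise) on the plus strand at chr1:78620198-78620447, GBP1 (amplified rise) on the minus strand at chr1:89065209-89065458, OAS3 (amplified rise) on the plus strand at chr12:112938224-112938473, and E2F1 (amplified fall) on the minus strand at chr20:33686386-33686635.
IRF1: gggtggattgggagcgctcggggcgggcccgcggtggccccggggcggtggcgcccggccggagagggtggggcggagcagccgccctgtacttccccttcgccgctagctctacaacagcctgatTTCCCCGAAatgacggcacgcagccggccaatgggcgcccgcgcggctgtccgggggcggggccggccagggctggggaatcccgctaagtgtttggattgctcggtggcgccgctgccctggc
IFI44L: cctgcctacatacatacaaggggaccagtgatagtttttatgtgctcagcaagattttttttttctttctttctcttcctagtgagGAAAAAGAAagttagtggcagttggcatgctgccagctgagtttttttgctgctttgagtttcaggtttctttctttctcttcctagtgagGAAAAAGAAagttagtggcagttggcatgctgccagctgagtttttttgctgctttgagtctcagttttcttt
GBP1: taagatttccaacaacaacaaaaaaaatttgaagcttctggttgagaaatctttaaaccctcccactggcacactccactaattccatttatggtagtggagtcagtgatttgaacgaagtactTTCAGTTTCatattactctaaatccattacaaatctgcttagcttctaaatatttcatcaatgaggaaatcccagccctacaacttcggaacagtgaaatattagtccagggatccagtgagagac
OAS3: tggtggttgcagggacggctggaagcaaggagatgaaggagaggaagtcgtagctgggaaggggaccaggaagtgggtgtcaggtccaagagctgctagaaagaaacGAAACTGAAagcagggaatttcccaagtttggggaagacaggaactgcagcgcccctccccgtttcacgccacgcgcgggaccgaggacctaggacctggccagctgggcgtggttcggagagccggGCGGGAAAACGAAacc
E2F1: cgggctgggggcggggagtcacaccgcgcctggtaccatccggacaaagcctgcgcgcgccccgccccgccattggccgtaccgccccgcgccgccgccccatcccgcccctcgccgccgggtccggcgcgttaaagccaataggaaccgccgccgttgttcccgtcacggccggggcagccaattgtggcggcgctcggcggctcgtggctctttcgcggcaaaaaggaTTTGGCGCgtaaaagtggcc
IRF1 held 1 GAS match, which starts 124 bases before the start site. IFI44L and OAS3 held 2 ISRE cores each, in OAS3 one overlapping an E2F word, and GBP1 held 1. E2F1, the E2F family's own first member, held 1 E2F word that starts 20 bases before its start site.

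Over the tested genes, 11563 (67.5%) were matched to RefSeq by symbol, with 16669 promoters since a gene can have several. The ISRE core was in 13.5% of 281 promoters of blunted rises and in 7.47% of 897 promoters of amplified rises, against 5.79% of all and 7.21% of 5535 promoters of genes that rose in the wild type. Among genes that rose there by at least 2 log2 the share was 23.6% of 72 promoters of blunted, 17.2% of 99 of amplified and 16.8% of 304 of uncalled genes. The GAS word was in 9.61% of promoters of blunted rises, 6.35% of amplified rises, 5.54% of all and 6.49% of genes that rose in the wild type. An E2F word was in 5.46% of 714 promoters of amplified falls, in 21.5% of 65 promoters of the cell cycle list and in 2.75% of all. These shares are counts of letters in a window, and no test was made of them.

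MHC class I genes were called in 6 of 19 cases (31.6%), and all 6 were blunted rises. DESeq2 called 4. A difference was called for 15.5% of all genes tested and 21.5% of those with at least 5 CPM in a group. Among genes that rose by at least 2 log2 in the wild type the share was 30.4%, near that of the class I list. For NLRC5 the wild type went from 53, 49.97 and 51.3 CPM to 395, 382 and 363 CPM, and the knockout from 103, 109.7 and 105 CPM to 537, 519 and 559 CPM. NLRC5, the transactivator of class I genes, was higher in the knockout in both states and had a difference of -0.54 ± 0.06. TAPBPL, a peptide editor of class I molecules, had -0.45 ± 0.08, and its treated libraries were lower in the knockout (97.6, 95.5 and 91.4 CPM) than in the wild type (151, 154 and 136 CPM). B2M, the class I light chain, had -0.25 ± 0.07. HLA-F and PSMB8, also called, lie on chromosome 6 between 28 and 34 Mb, the MHC window, where variable alleles and near-identical copies make reads hard to assign.

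MHC class II presentation was called in 10 of 22 genes (45.5%). The share was 21.5% of genes with at least 5 CPM in a group and 30.4% of genes that rose by at least 2 log2 in the wild type. Of the 10, 8 were amplified and 2 blunted, and 7 had the opposite sign as a difference of CPM gains. HLA-DQA1 had 2.09, 2.28 and 2.78 CPM in the untreated wild type and 580.1, 575 and 596 CPM with IFN-γ, against 0.0719, 0.319 and 0.226 CPM in the untreated knockout and 248, 257 and 250.5 CPM with IFN-γ. HLA-DQA1, a class II alpha chain in the MHC window, was lower in the knockout in both states yet rose by a larger factor, a difference of 2.27 ± 0.26. The untreated knockout library at 0.0719 CPM was below the floor of 3 counts (0.102 to 0.127 CPM), so the size of that ratio is uncertain. Over the alternative settings it ran from 1.90 to 2.72. HLA-DQB1 and HLA-DRB1 had differences of 1.94 ± 0.11 and 1.17 ± 0.06 with the same order of the groups. HLA-DRA was under 5 CPM in every library, with 21 and 15 counts over the treated libraries of the wild type and the knockout. It lies in the same window, and whether its reads were lost in mapping or counting was not tested. These counts are therefore not taken as its level of expression. CD74, the invariant chain, lies outside that window and had no called difference (0.10 ± 0.05), at 4425, 4289 and 4353 CPM in the treated wild type and 4388, 4383 and 4239 CPM in the treated knockout. LGMN, a lysosomal protease that cuts antigens and the invariant chain, was amplified by 1.13 ± 0.14 from a low start (from 24.7 to 59.3 mean CPM in the wild type and from 2.33 to 12.2 in the knockout). CTSL was amplified by 0.47 ± 0.05, and CTSS and the ubiquitin ligase gene MARCHF1, which removes class II molecules from the surface, were blunted by -0.19 ± 0.06 and -0.50 ± 0.09.

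Regulators of NF-κB leaned one way. Of 29 tested genes 14 were called, beside 15.5% of all genes tested and 21.5% of those with at least 5 CPM in a group. A more positive response in the knockout was called for 13 of the 29, beside 7.61% of all genes tested and 10.8% of those with at least 5 CPM. NFKBIA measured 44.0, 53.1 and 51.9 CPM without and 26.6, 31.2 and 27.9 CPM with IFN-γ in the wild type, and 36.9, 39.1 and 40.7 and then 46.1, 56.4 and 55.1 CPM in the knockout. NFKBIA, the inhibitor IκBα and a target of NF-κB, fell in the wild type and rose in the knockout, a difference of 1.23 ± 0.11. TNFAIP3, the A20 feedback inhibitor, was amplified by 1.22 ± 0.10 (from 36.4 to 41.0 mean CPM in the wild type and from 21.2 to 55.5 in the knockout). NFKBIZ, a nuclear IκB, was the exception, blunted by -0.60 ± 0.13. RELA, REL and NFKB1, the subunit genes, were not called (differences of 0.00, 0.09 and 0.13).

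Immediate early and MAPK feedback genes were called in 16 of 33 cases (48.5%), beside 21.5% of genes with at least 5 CPM in a group. They fell in every class, 11 of them more positive in the knockout. DUSP5 had 13.8, 13.6 and 17 CPM in the untreated wild type and 43.2, 52.4 and 51.7 CPM with IFN-γ, against 2.59, 1.63 and 2.90 CPM in the untreated knockout and 55.6, 62.9 and 62.3 CPM with IFN-γ. DUSP5 (hg38 chromosome 10, 110497838 to 110511544), a nuclear phosphatase that inactivates ERK, had the largest amplified rise under the level rule, 2.94 ± 0.16 (adjusted p = 8.3e-15), and its treated libraries in the knockout were all above those of the wild type. For ATF3 the wild type went from 104, 117 and 118 CPM to 101, 104 and 107 CPM, and the knockout from 35.6, 34 and 34.2 CPM to 135, 132 and 131 CPM. ATF3, a stress-induced repressor of inflammatory genes, was reversed, with a difference of 2.06 ± 0.07. Its fall in the wild type was small, and the wild-type libraries with and without IFN-γ overlapped. DUSP2 was a blunted fall (1.58 ± 0.29), DUSP4 an amplified fall (-0.49 ± 0.15) and ETV5, an ERK target, a gained fall (-0.50 ± 0.07), while DUSP6 had no called difference (0.04 ± 0.06).

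Genes of the unfolded protein and integrated stress response were called in 17 of 32 cases (53.1%), 13 of them more positive in the knockout. The share among genes with at least 5 CPM in a group was 21.5%. PHGDH measured 31.7, 36.5 and 29.6 CPM without and 211, 166 and 168 CPM with IFN-γ in the wild type, and 25.0, 26.1 and 22.7 and then 315, 315 and 298 CPM in the knockout. PHGDH, the first enzyme of serine synthesis, was amplified by 1.18 ± 0.10. PSAT1, the next enzyme, was amplified by 0.78 ± 0.10 and ATF4, the factor that drives both, by 0.62 ± 0.05. CHAC1, which degrades glutathione, and TRIB3, a pseudokinase that restrains ATF4 signalling, were blunted (-0.51 ± 0.17 and -0.46 ± 0.08).

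The largest reversal under the level rule was in CSF1. CSF1 had 177, 221 and 242 CPM in the untreated wild type and 121, 101 and 102 CPM with IFN-γ, against 20.7, 23.2 and 19.9 CPM in the untreated knockout and 64.2, 60.5 and 57.1 CPM with IFN-γ. CSF1 (hg38 chromosome 1, 109910242 to 109930992) encodes the growth factor M-CSF, which macrophages need to survive. It fell by 0.98 log2 in the wild type and rose by 1.51 in the knockout, a difference of 2.49 ± 0.12 (adjusted p = 1.5e-16). Every knockout library, treated or not, stayed below every wild-type library. Other reversals with a rise in the knockout were SULT1C2, a sulphotransferase (1.57 ± 0.20), MAP1A, a microtubule protein (1.5 ± 0.19), and L1CAM, an adhesion molecule (1.39 ± 0.26). C5AR1, the receptor of complement C5a, fell by 0.18 log2 in the wild type and rose by 0.32 in the knockout (0.51 ± 0.05).

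Reversals with a fall in the knockout were led by DKK2. For DKK2 the wild type went from 5.56, 4.68 and 5.26 CPM to 9.61, 10.9 and 11.6 CPM, and the knockout from 5.68, 6.72 and 6.42 CPM to 5.02, 4.6 and 4.47 CPM. DKK2, a secreted modulator of Wnt signalling, differed by -1.47 ± 0.18. MST1R, the receptor of macrophage-stimulating protein, followed at -1.23 ± 0.24, then PLCD1, a phospholipase C (-1.02 ± 0.16), CRACR2B, a regulator of store-operated calcium entry (-0.92 ± 0.15), and the transcription factor gene TSHZ3 (-0.91 ± 0.12). STAB1, a scavenger receptor, was also reversed: it went from 28.6 to 35.7 mean CPM in the wild type and from 104 to 76.8 in the knockout, a difference of -0.77 ± 0.10.

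Of 222 gained rises 178 started lower in the untreated knockout than in the untreated wild type. FERMT2 measured 32.6, 36.1 and 39.6 CPM without and 33.4, 31.6 and 34.6 CPM with IFN-γ in the wild type, and 4.53, 5.03 and 3.93 and then 11.3, 11.8 and 11.9 CPM in the knockout. FERMT2, or kindlin-2, which activates integrins, had a response of -0.12 ± 0.08 in the wild type, which was not called, and differed by 1.49 ± 0.13. MREG, a melanosome and lysosome transport protein, and GDF15, a stress cytokine, had differences of 1.5 ± 0.17 and 1.35 ± 0.14. The untreated knockout was lowest for both, at 4.32, 4.27 and 3.55 CPM for MREG and 11.8, 9.94 and 10.8 CPM for GDF15. CHST2, which sulphates N-acetylglucosamine, had 1.24 ± 0.25, and PCDHB9, of a protocadherin cluster with near-identical members, 1.27 ± 0.27.

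Gained falls were CABLES1, a cyclin-dependent kinase adaptor (-1.35 ± 0.20) and SLC29A4, a monoamine transporter (-1.09 ± 0.14). CX3CR1 had 29.9, 30.3 and 27.4 CPM in the untreated wild type and 34.8, 26.1 and 27.1 CPM with IFN-γ, against 12.9, 10.1 and 13.2 CPM in the untreated knockout and 6.64, 4.96 and 5.58 CPM with IFN-γ. CX3CR1, the fractalkine receptor, was lower in every knockout library than in any wild-type one, and its fall with IFN-γ was called in the knockout only. The difference was -1.08 ± 0.16.

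Lost rises were led by DLX1, a homeobox gene, and CLCN4, an endosomal chloride transporter. For CLCN4 the wild type went from 3.28, 3.08 and 2.82 CPM to 8.97, 9.76 and 9.29 CPM, and the knockout from 4.46, 4.65 and 4.0 CPM to 5.35, 4.39 and 5.54 CPM. The wild type alone had a called rise of CLCN4, the knockout libraries with and without IFN-γ overlapped, and the difference was -1.39 ± 0.19. DLX1 differed by -1.48 ± 0.30, CPED1 by -1.26 ± 0.22, and SAMSN1, a haematopoietic adaptor, by -1.14 ± 0.20. NLRP3, the inflammasome sensor, rose by 0.50 ± 0.04 in the wild type and had 0.02 ± 0.04 in the knockout (-0.48 ± 0.06).

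Lost falls were led by DNAI3 and FAM131B. FAM131B measured 16.6, 17.9 and 19.2 CPM without and 4.69, 5.92 and 6.17 CPM with IFN-γ in the wild type, and 7.12, 7.33 and 7.09 and then 6.60, 6.02 and 6.53 CPM in the knockout. FAM131B is a gene of little known function, and the difference was 1.51 ± 0.16. DNAI3, an axonemal dynein chain gene, differed by 1.99 ± 0.27, NCKAP1, of the actin-regulating WAVE complex, by 1.35 ± 0.29, MFAP4, of the extracellular matrix, by 1.33 ± 0.21, and TNFRSF12A, the TWEAK receptor, by 1.22 ± 0.22. CD83, a dendritic and macrophage activation marker, fell by 1.02 log2 in the wild type from 63.6, 70.3 and 73.5 CPM, and in the knockout was at 20.8, 21.5 and 20.8 CPM before and 18.9, 20.8 and 18.8 CPM after IFN-γ, a difference of 0.91 ± 0.10.

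Under the level rule C1QC led the blunted rises, followed by FRMD3 (-1.43 ± 0.15), FAM20A (-1.4 ± 0.24), SLFN12L (-1.34 ± 0.25) and IL1B. Of 22 complement genes 7 (31.8%) were called, 4 more positive and 3 more negative, beside 21.5% of genes with at least 5 CPM in a group. C1QC had 9.14, 10.7 and 10.9 CPM in the untreated wild type and 224, 214 and 202 CPM with IFN-γ, against 10.7, 10.8 and 10.5 CPM in the untreated knockout and 77.7, 71.3 and 70.0 CPM with IFN-γ. C1QC (hg38 chromosome 1, 22643630 to 22648110), a chain of the recognition molecule C1q, started alike in both genotypes and ended lower in every knockout library, a difference of -1.60 ± 0.10 (adjusted p = 5.8e-14). C1QA went from 14 to 155 mean CPM in the wild type and from 5.65 to 27.1 in the knockout (-1.20 ± 0.13). C1QB had under 1 CPM untreated and was not called (0.56 ± 0.51), although its treated libraries were at 218, 222 and 208 CPM in the wild type and 92.9, 91.2 and 84.1 CPM in the knockout. CD59, which blocks the membrane attack complex, gained a rise (0.63 ± 0.10).

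For IL1B the wild type went from 5.03, 3.94 and 5.03 CPM to 15.2, 13.1 and 13.5 CPM, and the knockout from 3.09, 3.38 and 3.68 CPM to 3.97, 4.64 and 4.28 CPM. IL1B, the inflammasome-processed cytokine, rose in the wild type to levels that no knockout library reached, a difference of -1.24 ± 0.19. Of 29 cytokines and chemokines tested 9 (31.0%) were called, 5 more positive and 4 more negative, beside the same 21.5%. IL18 gained a fall (-0.33 ± 0.11) and CXCL16, a scavenger-receptor chemokine, was amplified (0.57 ± 0.10). CCL2, the main monocyte chemoattractant, had no called difference (0.15 ± 0.27), though its levels stood apart at every state: from 8.75 to 58.0 mean CPM in the wild type and from 0.397 to 2.94 in the knockout. Of 33 Toll-like receptor and inflammasome genes 12 (36.4%) were called, again beside 21.5%, with 9 more negative in the knockout. These 9 included the pyrin gene MEFV (-0.70 ± 0.10) and NOD2, a sensor of bacterial peptidoglycan (-0.65 ± 0.11). RIPK2, the kinase that serves NOD2, was amplified (0.93 ± 0.12), as was TLR7 (0.47 ± 0.13).

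Of 34 chemoattractant and cytokine receptors 18 (52.9%) were called, 6 more positive and 12 more negative, beside 21.5% of genes with at least 5 CPM in a group. CXCR4, the CXCL12 receptor, was a blunted fall, from 93.7 to 14.3 mean CPM in the wild type and from 110.1 to 36.5 in the knockout (1.12 ± 0.08). IL7R was amplified (1.10 ± 0.23), and IL1RAP, the shared IL-1 receptor chain, was an amplified fall (-0.76 ± 0.18). Of 20 costimulation and checkpoint ligands 8 (40%) were called, beside the same 21.5%. CD86, a ligand of CD28, was blunted (-0.30 ± 0.07) and with IFN-γ stood at 226, 217 and 235 CPM in the wild type and 135, 134 and 132 CPM in the knockout. VSIR, an inhibitory ligand, was blunted too (-0.50 ± 0.06). CD40 and CD38 had no called difference (0.18 ± 0.09 and 0.18 ± 0.09).

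Granule genes of immature myeloid cells were mixed. Of 17 monoblast and granule markers tested 12 (70.6%) were called, 5 more positive and 7 more negative, beside 21.5% of genes with at least 5 CPM in a group. DESeq2 called 9 (5 more positive and 4 more negative) and limma-voom 10 (5 and 5). An adjusted p under 0.01 left 8 (5 and 3), so which sign was more frequent depended on the setting. PRTN3 measured 23.9, 23.2 and 25.5 CPM without and 1.12, 1.29 and 1.48 CPM with IFN-γ in the wild type, and 37.2, 32.8 and 34.8 and then 9.64, 7.89 and 7.64 CPM in the knockout. On the log2 scale PRTN3, the azurophil protease 3, fell less in the knockout, by 2.16 ± 0.17, and CTSG, cathepsin G, likewise (1.77 ± 0.14). As differences of CPM gains, 6 of the 12 called markers had the opposite sign. PRTN3 and CTSG were among them, at -3.68 ± 1.58 and -12.0 ± 3.11 CPM. Both stood higher in every knockout library than in any wild-type library of the same treatment. MYB, a factor of proliferating progenitors, was an amplified fall (-1.84 ± 0.17) and LYZ, lysozyme, too (-0.68 ± 0.05). The summed level of the 20 listed markers was 1620 to 1745 CPM in the untreated and 638 to 663 CPM in the treated wild type, and 1490 to 1564 and 422 to 439 CPM in the knockout. Whether a changing share of immature cells moves with the cell cycle result was not tested.

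Of 16 macrophage markers 7 (43.75%) were called, beside 21.5% of genes with at least 5 CPM in a group. Of the 7, 2 were more positive, FCGR1A among them, and 5 more negative, CD14 among them (-0.34 ± 0.06). Scavenger and phagocyte genes varied. MSR1, a class A scavenger receptor, was amplified by 1.52 ± 0.11 from a low start (from 42.6 to 138 mean CPM in the wild type and from 6.68 to 61.8 in the knockout), OLR1, an oxidised lipoprotein receptor, was an amplified fall (-0.74 ± 0.15), and SCARB2, a lysosomal membrane protein, was amplified (0.53 ± 0.05). CYBB, the catalytic subunit of the phagocyte oxidase, was amplified (0.50 ± 0.05), its partner NCF4 was blunted (-0.38 ± 0.07), and SLC11A1, the phagosomal metal transporter NRAMP1, was an amplified fall (-1.76 ± 0.16).

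Adhesion genes were called in 15 of 31 cases (48.4%), beside 21.5% of genes with at least 5 CPM in a group. ITGA3 had 49.97, 67.0 and 59.7 CPM in the untreated wild type and 10.5, 10.2 and 8.69 CPM with IFN-γ, against 13.1, 12.4 and 13.6 CPM in the untreated knockout and 6.4, 8.22 and 6.57 CPM with IFN-γ. ITGA3, a laminin-binding integrin chain, fell more in the wild type, to below the level of the untreated knockout, a difference of 1.71 ± 0.15. ITGB3, an integrin chain of vitronectin receptors, was a blunted fall of the same kind (1.64 ± 0.32), ITGA6 an amplified fall (-0.57 ± 0.08) and ITGB7 a blunted rise (-0.46 ± 0.05). TIMP3, an inhibitor of metalloproteinases, was a blunted fall (1.45 ± 0.10), and THBD, thrombomodulin, and VCAN, versican, were amplified falls (-0.75 ± 0.08 and -0.81 ± 0.20). F3, tissue factor, was amplified (1.39 ± 0.24).

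Of 23 heparan sulphate proteoglycan genes tested 9 (39.1%) were called, 5 more positive and 4 more negative, beside 21.5% of genes with at least 5 CPM in a group. For SDC4 the wild type went from 84.7, 84.9 and 83.7 CPM to 60.5, 57.6 and 55.8 CPM, and the knockout from 58.7, 55.9 and 60.0 CPM to 74.0, 77.5 and 77.8 CPM. SDC4, the syndecan of focal adhesions, was reversed, with a difference of 0.93 ± 0.07. The knockout was lower before IFN-γ and higher after it, in all 3 libraries of each state. GPC4, a glypican anchored by lipid, was reversed as well (0.91 ± 0.06) and SDC2 was an amplified fall (-0.24 ± 0.06). Enzymes that build and sulphate the chains were called in 3 of 24 cases, beside 15.5% of all genes tested. That count was 5 with DESeq2's size factors and 1 to 6 with single libraries left out. They included PAPSS2, which makes the sulphate donor (0.42 ± 0.10), and HS2ST1, a sulphotransferase (0.29 ± 0.09), both blunted falls.

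Metabolic lists were called less evenly. None of 32 respiratory chain genes was called by edgeR's quasi-likelihood test, and their median difference was -0.01 log2. At an unadjusted p under 0.05 there were 2 of them, DESeq2 and limma-voom called 0 each, and scaling by library totals alone called 2. Glycolysis genes were called in 10 of 26 cases (38.5%), beside 21.5% of genes with at least 5 CPM in a group. Among them were SLC2A6, a lysosomal hexose transporter (gained rise, 1.09 ± 0.18), ENO2, an enolase (blunted fall, 1.02 ± 0.20), and SLC2A5, the fructose transporter (reversed, -0.68 ± 0.07). Of 28 cholesterol and fatty acid synthesis genes 8 (28.6%) were called, near the 21.5% of genes with at least 5 CPM in a group, and 7 were more positive. SQLE, squalene epoxidase, had 0.67 ± 0.09. The lipid genes FABP4, a fatty acid chaperone, and LPL, lipoprotein lipase, were blunted falls (1.19 ± 0.16 and 1.07 ± 0.09). BCAT1, which starts the breakdown of branched-chain amino acids, had the second largest amplified rise under the level rule: 67.5, 68.6 and 75.5 CPM rose to 134, 115 and 134 CPM in the wild type and 7.09, 8.44 and 6.61 CPM to 96.3, 96.6 and 106 CPM in the knockout (2.89 ± 0.10). NAMPT, which recycles nicotinamide, was amplified (0.69 ± 0.08), and MT2A, a metallothionein, was blunted (-0.78 ± 0.10).

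**Figure D4:**
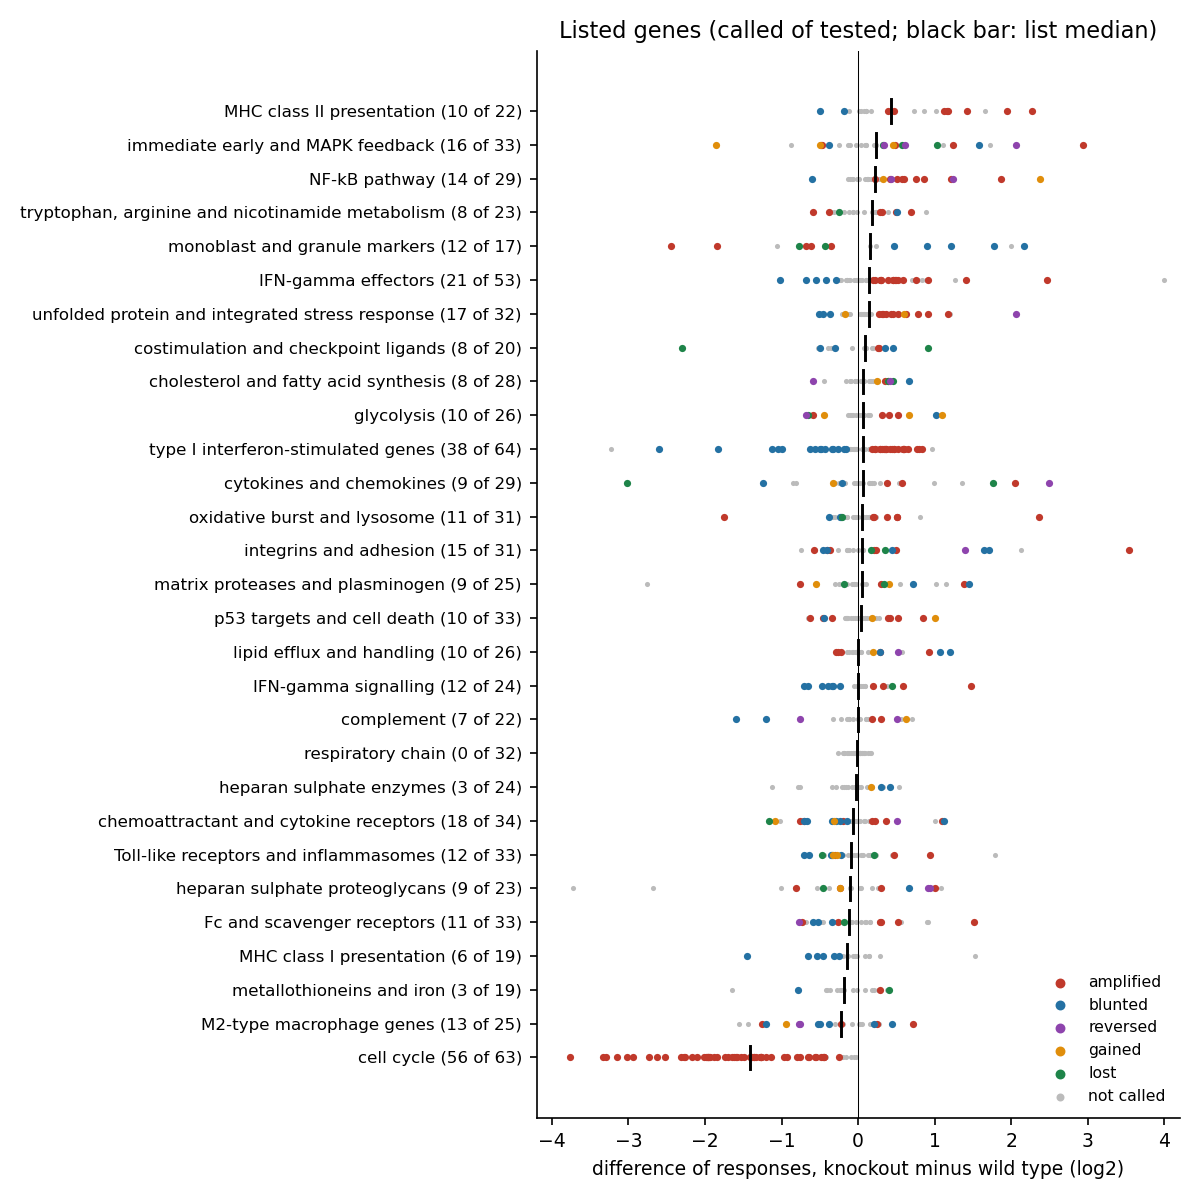
Rows are gene lists, with the number called of the number tested, and points are member genes by their difference of responses (x, log2, knockout minus wild type), coloured by class. Black bars are list medians. The cell cycle list stands at -1.41 and all other medians shown are between -0.22 and 0.43.

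Some of these classes depend on whether change is read as a ratio or as CPM gained. The difference of CPM gains had the opposite sign to the log2 difference for 260 of the 2649 called genes (9.82%), among them 189 amplified and 69 blunted ones. GBP4 gained 1552 CPM in the wild type and 2718 CPM in the knockout, so its blunted ratio went with a gain larger by 1166 ± 49.1 CPM (SE from the 4 group SDs, n = 3 each). MX1 and IRF1 gained 407 ± 5.36 and 178 ± 19.8 CPM more in the knockout. The reverse held for HLA-DQA1, whose amplified ratio went with a gain smaller by 329 CPM, for MSR1 and for SDC3. SLAMF7 and GBP1 were larger on both scales (85.5 ± 8.56 and 806 ± 67.3 CPM), and C1QC and IL1B smaller on both. No gained, lost or reversed gene changed sign between the scales other than 2 gained ones.

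Most differences within the interferon lists were small beside those of the cell cycle list. Tested against a log2 difference of 0.5 (edgeR's glmTreat), 345 of all 17119 genes tested were called. Among them were 43 of 63 cell cycle genes, 2 of 24 signalling genes, 5 of 53 IFN-γ effectors and 6 of 64 type I genes. The calls of 15 named genes were lost when single libraries were left out: CHAC1, CSF1R, CTSS, DUSP4, HLA-F, HS2ST1, IL18, ISG15, JAK2, P2RY14, PSMB8, PTPN6, SOCS3, TLR7 and USP18. Their adjusted p-values then reached 0.0757 (JAK2, without the untreated wild-type replicate 2) to 0.309 (HLA-F, without the untreated knockout replicate 2).

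**Figure D5:**
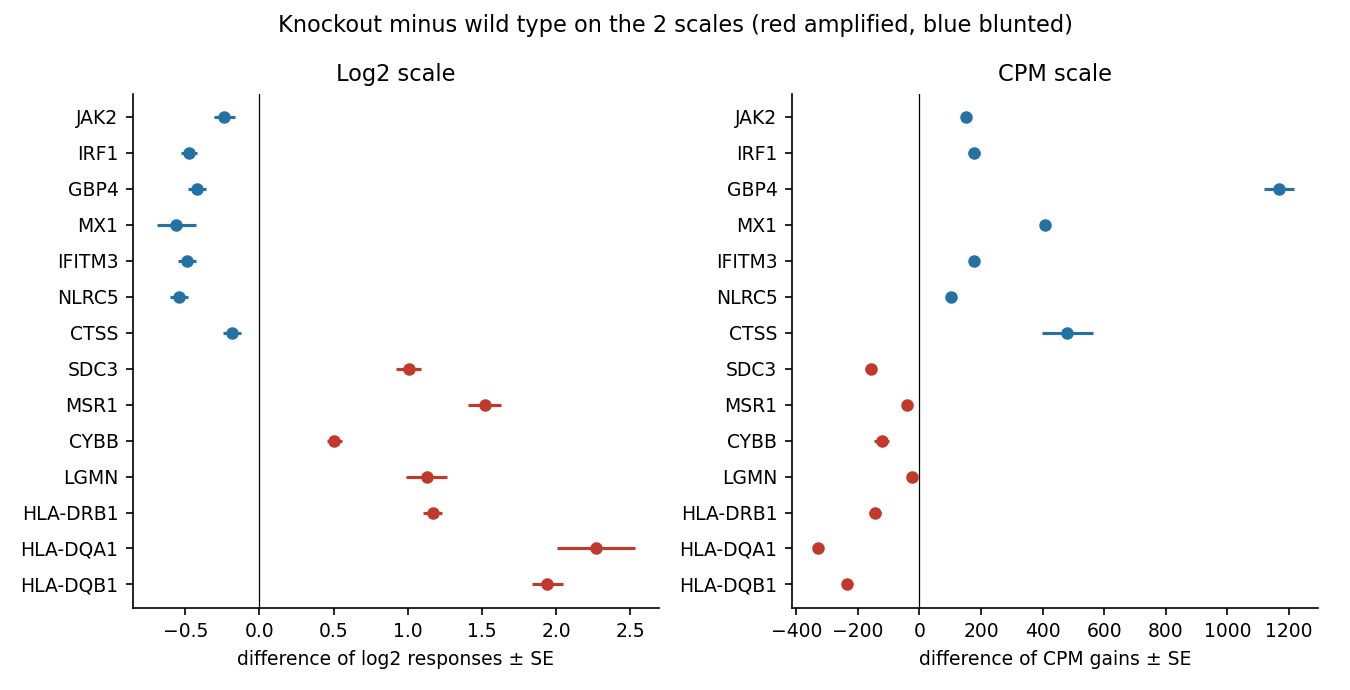
Points are the knockout minus wild-type difference of 14 genes, chosen because the sign changes, as log2 responses ± SE (left, x) and as CPM gains ± SE (right, x), red for amplified and blue for blunted. The 7 blunted genes lie left of 0 on the log2 scale and right of it in CPM, and the 7 amplified ones the other way round.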

How the data were processed

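Poly(A) RNA of 12 THP-1 libraries was sequenced with a stranded kit, per the labels' protocols. The authors deposited whole-number read counts per hg38 gene, made with featureCounts 2.0.3 over exons, primary alignments only and chimeric pairs left out, per the file headers. The headers hold no strand option, so reads of antisense and overlapping genes may be mixed. Each mate added its own count, and 70.4% to 73.3% of the counts from 1 to 19 were even. The submitters' processing notes also list fastp 0.23.2, STAR 2.7.10b, BWA, Picard 2.27.5 and MultiQC 1.13. Which aligner made the counted alignments is not given in the sources used here. Mitochondrial genes had 0 counts.

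The deposited counts were turned here into CPM and log2 changes. Low genes were removed by filterByExpr, libraries were scaled by TMM, and the 12 libraries entered 1 fit on group alone, tested with edgeR 4.0.16 (quasi-likelihood, two-sided, Benjamini-Hochberg over all 17119 genes, called under 0.05). Errors of log2 values are SEs from that test. A floor of 3 counts was 0.102 to 0.127 CPM. Between replicates the chi-square over degrees of freedom was 2.90 to 7.58. Counting both mates of a pair raises this value without any difference between replicates, so the excess over sampling noise was not measured. Counts drawn at random with known differences gave 32% of 1.25-fold, 86% of 1.5-fold, 98% of 2-fold and 100% of 4-fold differences of responses, with 12 of 15975 unchanged genes called (16175 genes in that fit). The changed genes were drawn only from well-read ones. Spread followed the common trend with level, without variation between genes or the doubled counts of mates. These rates therefore need not hold for genes with few reads or a spread off the trend.

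The genes named are a panel of pathway genes, the 5 largest differences in each class and direction (protein-coding, at least 5 CPM in 1 group and 1 CPM in every group, outside chromosome 6 from 28 to 34 Mb), and up to 2 members each way of each list under the same rule. For length some are left out, and a few genes are not reported here. Others were chosen after their values were seen, among them MKI67, E2F1, E2F8, MCM10, CDC45, TYMS, CCNB1, PCNA, AURKA, CDKN1A, STAT2, IRF2, PTPN6, BATF3, GBP4, SLAMF8, APOL2, IFIT2, IFIT3, IFIH1, IFI44L, the HLA genes, CD74, C1QB, PSAT1, ATF4, NLRP3, DUSP6, GPC4 and SDC2. The classes and 34 gene lists were chosen with earlier results of these data known. No batch or date is given by the labels. Alternatives were DESeq2 1.42.0, limma-voom (limma 3.58.1), other scalings, other filters, stricter calls, a replicate block and each library left out. R 4.3.3 and Python 3.11.15 were used.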

Additional observations from a re-analysis of the deposited data

Results flagged for a closer look

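The test of the difference itself found 2649 genes whose response to IFN-γ was not the same in both genotypes, and 121 of them had called responses in opposite directions. Groups of 3 libraries are too small for a test of single outlying libraries, so none was made.

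Among the called reversals, the 5 protein-coding genes with the largest difference in each direction under the level rule are those named above. They were ranked by size, without a further test. The difference of responses was 2.49 log2 for CSF1, 2.06 for ATF3, 1.57 for SULT1C2, 1.5 for MAP1A and 1.39 for L1CAM, each of which fell with IFN-γ in the wild type and rose in the knockout. It was -1.47 for DKK2, -1.23 for MST1R, -1.02 for PLCD1, -0.92 for CRACR2B and -0.91 for TSHZ3. Each of these rose in the wild type and fell in the knockout. The wild-type fall of ATF3 was small, and its wild-type libraries with and without IFN-γ overlapped.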

How the results depend on the processing

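Without single libraries the differences numbered 2226 to 2696, of them 1101 to 1311 more positive in the knockout and 1115 to 1385 more negative, with 1066 to 1240 amplified, 311 to 412 blunted, 91 to 133 reversed, 413 to 588 gained and 262 to 335 lost, and responses numbered 8996 to 9675 in the wild type and 9731 to 10601 in the knockout. Tested against a log2 difference of 0.5 (glmTreat), 345 were called (157 more positive, 188 more negative), with 212 amplified, 40 blunted, 28 reversed, 47 gained and 18 lost. At an adjusted p under 0.01 there were 1676 (855 and 821), with 828 amplified, 218 blunted, 59 reversed and 192 lost. With a log2 difference of at least 1 there were 458 (175 and 283), with 223 amplified, 47 blunted, 18 reversed, 100 gained and 67 lost. When a response also had to reach 0.5 log2, 826 were amplified, 225 blunted and 6 reversed, and 5336 responses were called in the wild type and 6197 in the knockout. RLE size factors, upper-quartile scaling, library totals alone, no low-count filter, a 5 CPM filter, DESeq2 and limma-voom kept every count of classes within 1.5 times, but ended calls of named genes (adjusted p in brackets). RLE factors ended CSF1R (0.0951), CTSS (0.0692), IL18 (0.0551) and PSMB8 (0.0534), and DESeq2 these at 0.0718, 0.0925, 0.0514 and 0.235 with HLA-F (0.265). Limma-voom ended CHAC1 (0.132), DUSP4 (0.0761), HLA-F (0.248), ISG15 (0.0817), P2RY14 (0.0973), PSMB8 (0.0507) and USP18 (0.0837), library totals HS2ST1 (0.0702), ISG15 (0.0738), PTPN6 (0.104) and USP18 (0.0537), and no low-count filter CSF1R (0.0779), IL18 (0.105) and SOCS3 (0.0547). The median difference moved to -0.07 log2 with library totals alone, which called 2853 genes and shared 2347, of which 63.6% kept their class. Upper-quartile scaling kept the class of 80.4% of shared genes. Library totals turned complement from 4 more positive and 3 more negative to 3 and 4. Without the low-count filter 10 MHC class I genes were called in place of 6, 2 of them more positive in the knockout, as were 2 of 8 without the treated wild-type replicate 3 and 1 of 6 without the untreated wild-type replicate 2, an adjusted p under 0.01 left 7 of the 12 signalling, 5 of the 9 cytokine and 7 of the 12 Toll-like and inflammasome calls, and a difference of at least 1 left 0 calls in the last of these lists. A fit with the replicate number as a block called 2587 genes, 2553 of them shared, and it ended the call of HLA-F alone among the named genes (adjusted p = 0.0657). Replicate numbers did not pair the libraries: deviations of same-numbered libraries correlated at -0.149 to 0.252, 2 of 18 pairs over 0.1, and 4 of 12 libraries correlated best with their own number.

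Differences of uncalled genes that changed sign were near 0 or rested on low counts. With RLE factors and DESeq2 JAK1 had 0.0091 and MCM6 0.0019, and ITGAM had 0.0197 and 0.0198. ITGAM had 0.0056 without the low-count filter. RELA had -0.0038 with upper-quartile scaling, -0.0464 with library totals and -0.0150 with the 5 CPM filter, and DUSP6 had -0.0107 with library totals. Without single libraries JAK1 ranged from -0.0543 to 0.0039, MCM6 from -0.0666 to 0.0091, ITGAM from -0.0339 to 0.0288, RELA from -0.0692 to 0.0622, CIITA from -0.163 to 0.328, RSAD2 from -0.0787 to 0.659, SOCS1 from -0.113 to 0.757 and CCL2 from -0.195 to 0.690. For 15 named genes single libraries of 12 ended the call, with the highest adjusted p in brackets: CHAC1 by 8 (up to 0.138), CSF1R by 8 (up to 0.114), CTSS by 7 (up to 0.102), DUSP4 by 4 (up to 0.0799), HLA-F by 7 (up to 0.309), HS2ST1 by 4 (up to 0.113), IL18 by 7 (up to 0.0996), ISG15 by 6 (up to 0.125), JAK2 by 4 (up to 0.0757), P2RY14 by 2 (up to 0.102), PSMB8 by 9 (up to 0.175), PTPN6 by 6 (up to 0.0968), SOCS3 by 2 (up to 0.0915), TLR7 by 2 (up to 0.0796), USP18 by 6 (up to 0.0924). In CPM gained, called differences that were negative on the log2 scale were positive at 13.8 (BATF2), 4.88 (CCNB1), 25.8 (CHAC1), 479 (CTSS), 12.8 (DUSP4), 1.34 (E2F1), 1166 (GBP4), 101 (IFI44L), 8.05 (IFI6), 178 (IRF1), 152 (JAK2), 96.0 (LYZ), 0.318 (MCM10), 0.499 (MEFV), 407 (MX1), 7.94 (MYBL2), 104 (NLRC5), 0.698 (OLR1), 3.23 (SLC11A1), 3.70 (SOCS3) and 6.77 (TYMS), and those positive on the log2 scale were negative at -12.0 (CTSG), -123 (CYBB), -0.631 (F3), -329 (HLA-DQA1), -236 (HLA-DQB1), -145 (HLA-DRB1), -24.7 (LGMN), -40.1 (MSR1), -3.68 (PRTN3) and -158 (SDC3). With a floor of 3 counts, genes near 0 before IFN-γ, such as CXCL9 and CXCL10, had no measurable ratio at this depth.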
